A study of Homo sapiens with 60 samples.

Results

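Small heat-shock proteins, BAG3, and the cytosolic heat-shock protein 90 (HSP90) system were followed through 10 genes: HSPB1, CRYAB, HSPB8, BAG3, HSP90AA1, HSP90AB1, FKBP4, STIP1, AHSA1, and CHORDC1. They were taken from the count table by gene name and were 10 of its 62703 genes and 10 of the 12341 genes with enough counts to be tested. The cells were 1321N1, a line from a human astrocytoma, kept in the same serum-containing medium in all groups. They were exposed to 2.55 µM sodium metaarsenite (As), 2.3 µM cadmium chloride (Cd), or 20 µM mercury chloride (Hg) for 1.5, 3, 6, 12, or 24 h, or were left non-treated for the same times. RNA was sequenced from its 3′ ends in 60 libraries, 3 for each of the 20 groups, and the 3 metals of a time share its 3 non-treated libraries as controls. Each metal was given at 1 dose, chosen in the study for a like loss of viability after a longer exposure, so metal and dose cannot be told apart. The labels call the replicates technical triplicates of 1 cell line, while the study's methods speak only of treatments done in triplicate. What separates the 3 libraries of a group is therefore not settled, and the p-values below measure only the spread between libraries, which may be technical.

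Small heat-shock proteins such as HSPB1 and CRYAB (alpha B-crystallin) hold unfolding proteins in solution without using ATP, and both are found in the protein inclusions of diseased astrocytes. BAG3 is a nucleotide exchange factor of HSP70 that also binds small heat-shock proteins, HSPB8 above all, and directs the proteins they hold to autophagy. HSP90AA1 and HSP90AB1 are the stress-inducible and the constitutive cytosolic HSP90, which mature kinases and steroid receptors. Among their co-chaperones, STIP1 passes proteins from HSP70 to HSP90, AHSA1 stimulates the HSP90 ATPase, FKBP4 is an immunophilin of steroid receptor complexes, and CHORDC1 binds the HSP90 nucleotide-binding domain. Many of these genes are known targets of heat-shock factor 1 (HSF1), which binds inverted repeats of the unit GAA, called heat-shock elements.

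Total counts per library ranged from 2215276 to 4404609, and 3 counts corresponded to between 0.680 and 1.36 CPM (counts scaled to a common library total). Levels below are CPM scaled with the trimmed mean of M-values (TMM), and LFC is the log2 fold change of metal over non-treated. Of 9 markers used for astrocytes, VIM (median 4477 CPM) and CD44 (median 393 CPM) were high. NES had counts in all 60 libraries but a median of only 3.40 CPM, and SLC1A3 had a median of 0.838 CPM. GFAP, S100B, SLC1A2, AQP4, and ALDH1L1 had a median of 0 CPM, with no count of AQP4 or ALDH1L1 in any library. The summed fibroblast markers (COL1A1, DCN, and LUM) ranged over 682 to 926 CPM in non-treated, 574 to 859 in As, 626 to 861 in Cd, and 503 to 868 CPM in Hg libraries. COL1A1, a collagen gene with a median of 747 CPM, supplied nearly all of this. Its LFC was -0.33 ± 0.10 (adjusted p = 0.0401) with As and -0.42 ± 0.10 (0.00118) with Hg at 12 h, and -0.45 ± 0.10 (0.000565) and -0.64 ± 0.10 (4.79e-07) at 24 h. With Cd it was -0.10 ± 0.10 (adjusted p = 0.629) and -0.06 ± 0.10 (0.888) at these times. DCN was not called, and LUM had too few counts to be tested. The part of these markers and of CD44 and NES in the results below was not tested. CD44 was lower with As at 24 h (LFC -0.46 ± 0.07, adjusted p = 1.57e-06) and higher with Cd at 12 h (0.37 ± 0.07, 0.000191), and NES was lower with Hg at 24 h (-1.62 ± 0.57, 0.0252). The summed astrocyte markers ranged over 3828 to 5649 CPM in non-treated, 3313 to 5651 in As, 3380 to 6243 in Cd, and 3799 to 5981 CPM in Hg libraries. VIM supplied most of this sum. Summed markers of neurons (3 genes) reached at most 5.38 CPM, those of microglia (3 genes) 2.02 CPM, those of oligodendrocytes (3 genes) 1.15 CPM, and those of endothelium (2 genes) 0.863 CPM.

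Members rose under all 3 metals and none was called lower. Of 150 tests of a member against non-treated cells, 72 were called higher by edgeR's quasi-likelihood test (Benjamini-Hochberg adjusted p below 0.05 over all genes tested), 16 of 50 with As, 23 of 50 with Cd, and 33 of 50 with Hg. HSPB8 had enough counts to be tested only through the groups where it was high, so its calls are a description. Without it, 69 of 135 tests of 9 members were called, 16 of 45 with As, 22 of 45 with Cd, and 31 of 45 with Hg. The share of all genes called higher also differed between metals and times. It ran from 0.0648% to 6.54% with As, from 0% to 5.19% with Cd, and from 0.478% to 13.9% with Hg. The totals per metal and per gene are to be read beside these shares, given for each comparison below. Of the 19 tests with an LFC below 0, 1 had an unadjusted p below 0.05, and neither edgeR nor DESeq2 called a member lower. BAG3 was called in 13 of 15 comparisons, HSPB1, CRYAB, HSP90AA1, and CHORDC1 in 9 each, HSP90AB1 in 7, FKBP4 and AHSA1 in 5 each, and STIP1 and HSPB8 in 3 each. In bulk RNA, a change in the number of cells of a kind and a change in RNA per cell cannot be told apart.

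With As, 0 of 10 members were called higher at 1.5 h, beside 0.0648% of all genes tested, where 2 members had an unadjusted p below 0.05 and DESeq2 called 1. The count was 2 at 3 h (0.122% of all genes), rose to 5 at 6 h (0.592%) and 7 at 12 h (2.37%), and was 2 at 24 h (6.54%), so that the members' count was lower at 24 h than at 12 h while that of all genes was higher. With Cd, edgeR called 0 members and 0% of all genes higher at 1.5 h, where 991 genes had an unadjusted p below 0.05 in either direction and DESeq2 called 1 gene higher. There, 4 members had an unadjusted p below 0.05, 3 of them with an LFC above 0, and DESeq2 called 0 members. With Cd, edgeR called 2 members at 3 h (0.203% of all genes), 6 at 6 h (1.6%), 10 at 12 h (5.19%), and 5 at 24 h (1.56%). With Hg, 2 members were called higher at 1.5 h (0.478% of all genes) and 4 at 3 h (1.39%). The count then came to 8 members at 6 h (4.49%), 9 at 12 h (8.9%), and 10 at 24 h (13.9%). Without HSPB8 the count was 9 with Cd at 12 h, 8 with Hg at 12 h, and 9 with Hg at 24 h, and a stricter filter, which leaves HSPB8 out, gave the same 3 counts. The median LFC of the members at 12 h was 0.50 with As, 0.82 with Cd, and 0.76 with Hg, and at 24 h it was 0.28, 0.51, and 0.83, while the median over all genes stayed between -0.02 and 0.00. Over the 9 members without HSPB8, the medians were 0.51, 0.79, and 0.73 at 12 h and 0.28, 0.44, and 0.79 at 24 h. When each library was left out in turn, 55 of the 72 calls held throughout (52 of 69 without HSPB8), and the other 17 were lost without at least 1 library.

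**Figure D1:**
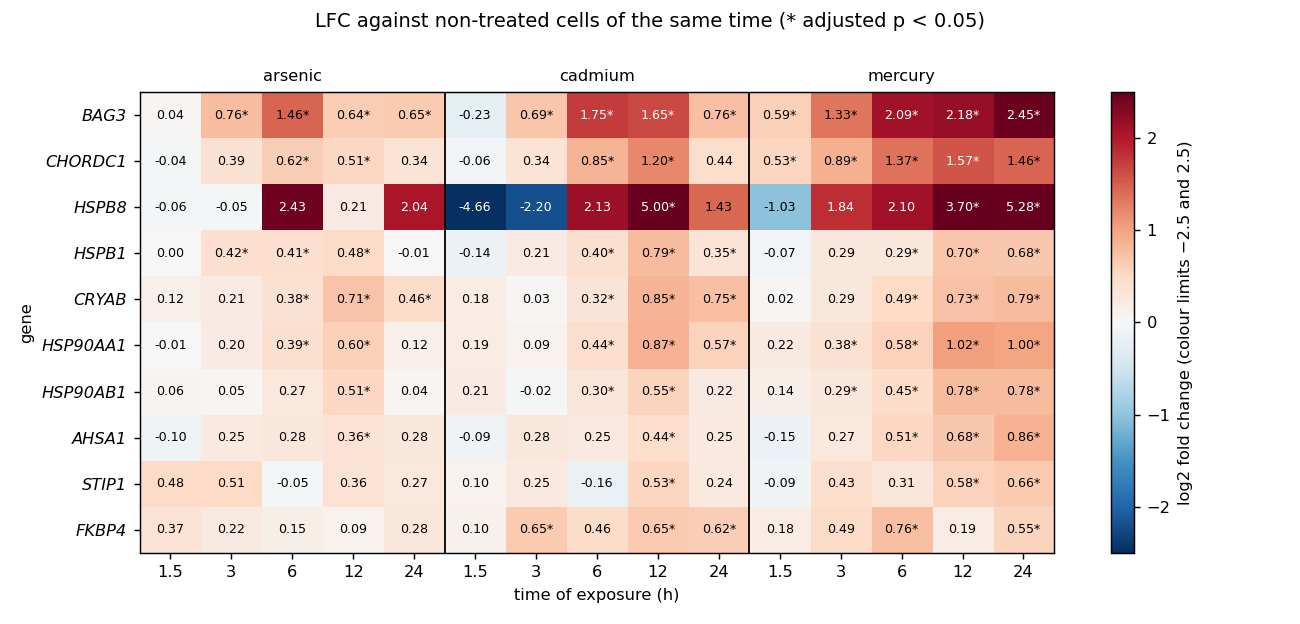
Map of the LFC of each of the 10 genes (rows) in each of the 15 comparisons of metal with non-treated cells (columns, by metal and hours). Colour gives the LFC within fixed limits, and HSPB8, which rests on few counts, lies beyond them in some comparisons. BAG3 with Hg forms the strongest row of well-counted values, from 0.59 at 1.5 h to 2.45 at 24 h, and the 9 genes other than HSPB8 were all called with Cd at 12 h and with Hg at 24 h.

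BAG3 was called with all 3 metals from 3 h on, and with Hg also at 1.5 h. Its 15 non-treated libraries lay between 54.0 and 87.2 CPM (median 70.6). With Hg, the 3 libraries stood at 112, 92.5, and 101 CPM at 1.5 h, at 160, 174, and 155 CPM at 3 h, and at 359, 354, and 326 CPM at 24 h. All of these lay above every non-treated library. The LFC of BAG3 with Hg was 0.59 ± 0.14 (SE) at 1.5 h and 1.33 ± 0.13 at 3 h. It was 2.09 ± 0.13 at 6 h and 2.18 ± 0.13 at 12 h, and it ended at 2.45 ± 0.13 at 24 h, a 5.45-fold rise with an adjusted p of 7.09e-25. The call at 1.5 h was lost without replicate 3 of the non-treated libraries (LFC 0.46) or without replicate 1 of Hg (LFC 0.51).

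With As, BAG3 was highest at 6 h, at 194, 186, and 196 CPM against 62.7, 74.0, and 72.1 CPM in non-treated cells. This was an LFC of 1.46 ± 0.13 (adjusted p = 2.98e-13), with smaller called values of 0.76 ± 0.14 at 3 h, 0.64 ± 0.13 at 12 h, and, last, 0.65 ± 0.13 at 24 h. The As effect on BAG3 was smaller at 12 h than at 6 h by the test of that difference (-0.82 ± 0.19, adjusted p = 0.0207), and BAG3 was the only member called lower in that contrast, beside 0.186% of all genes. That difference was not called when 1 of 4 libraries was left out, with values from -0.81 to -0.75.

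With Cd, BAG3 was not called at 1.5 h (LFC -0.23 ± 0.14, adjusted p = 0.707), and stood at 108, 94.8, and 113 CPM at 3 h and at 210, 246, and 250 CPM at 6 h. Its LFC was 0.69 ± 0.13 for the 3 h pair of groups, 1.75 ± 0.13 for 6 h, 1.65 ± 0.13 for 12 h, and 0.76 ± 0.13 for 24 h. The Cd effect grew from 1.5 to 3 h by 0.92 ± 0.19 (adjusted p = 0.0206, the only member called, beside 0.0729% of all genes), and from 3 to 6 h by 1.06 ± 0.19 (adjusted p = 0.000819, again the only member, beside 0.276%). At 24 h the libraries stood at 122, 123, and 73.8 CPM against 68.8, 58.6, and 62.7 CPM in non-treated cells, with replicate 3 close to the non-treated range. The LFC was 0.96 without that library, and with the spread estimated from the 6 compared libraries alone the adjusted p was 0.0849. The call at 3 h was lost without replicate 3 of the non-treated libraries (LFC 0.63), and the growth from 1.5 to 3 h without 1 of 8 libraries (values from 0.76 to 0.90).

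The BAG3 gene lies at chr10:119651380-119677819 (GRCh38, plus strand). Its promoter, from 250 bases before to 50 bases after the RefSeq start (GRCh38.p14, chr10:119651130-119651429, plus strand), is shown because BAG3 had the largest LFC of the well-counted members, and because it can be set beside the promoters of other members below. No match to GAANNTTC or TTCNNGAA, a pair of inverted GAA units, was found in it on either strand, which says only that these letters are not in this window.
BAG3: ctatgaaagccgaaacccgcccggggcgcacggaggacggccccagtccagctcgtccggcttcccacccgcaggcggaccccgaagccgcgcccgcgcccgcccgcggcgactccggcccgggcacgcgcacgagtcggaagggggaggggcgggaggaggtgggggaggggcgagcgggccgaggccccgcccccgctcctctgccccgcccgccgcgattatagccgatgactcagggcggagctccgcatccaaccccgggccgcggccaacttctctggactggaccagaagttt
Promoters of 8 of the 10 members, all but CRYAB and FKBP4, were matched by symbol, with 13 windows of 300 bases for the alternative starts. Matches to the pair of units were found in 4737 of all 35114 RefSeq promoters (13.5%), and matches to 3 units in a row, GAANNTTCNNGAA or TTCNNGAANNTTC, in 172 (0.49%). Counted per gene, with a match at any of its starts, these were 4417 of 27303 genes (16.2%) and 166 genes (0.608%).

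CHORDC1 had the second largest LFC of the well-counted members with Hg. Its non-treated libraries lay between 56.1 and 70.2 CPM (median 64.7), and the 15 Hg libraries between 84.0 and 217 CPM (median 156), so the groups did not overlap at any time. The LFC with Hg was 0.53 ± 0.13 at 1.5 h, then 0.89 ± 0.13 at 3 h, and had reached 1.37 ± 0.13 by 6 h. At 12 h it was 1.57 ± 0.13 (adjusted p = 8.05e-16), with 1.46 ± 0.13 at 24 h. The call at 1.5 h was lost when 1 of 5 libraries was left out, with LFC values from 0.46 to 0.58. With Cd, CHORDC1 stood at 125, 147, and 197 CPM at 12 h against 65.3, 70.2, and 69.0 CPM, an LFC of 1.20 ± 0.13 (adjusted p = 6.42e-11), and at 81.2, 82.0, and 88.5 CPM at 24 h (LFC 0.44 ± 0.13, adjusted p = 0.0625). With As it was called at 6 h (LFC 0.62 ± 0.13) and 12 h (0.51 ± 0.13), the first lost without replicate 3 of the non-treated libraries (0.56) and the second without 1 of 2 libraries (0.40 and 0.48).

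The CHORDC1 gene lies at chr11:90200429-90223077 (GRCh38, minus strand). Its promoter (chr11:90223000-90223299, minus strand, GRCh38.p14) is shown because it held the most matches among the members, 6 to a pair of units, of which 4 overlap in a run from 60 to 38 bases before the start. That run holds 3 overlapping matches to 3 units in a row. The other matches to a pair lie from 205 to 198 and from 23 to 16 bases before the start, and capitals mark all matched letters.
CHORDC1: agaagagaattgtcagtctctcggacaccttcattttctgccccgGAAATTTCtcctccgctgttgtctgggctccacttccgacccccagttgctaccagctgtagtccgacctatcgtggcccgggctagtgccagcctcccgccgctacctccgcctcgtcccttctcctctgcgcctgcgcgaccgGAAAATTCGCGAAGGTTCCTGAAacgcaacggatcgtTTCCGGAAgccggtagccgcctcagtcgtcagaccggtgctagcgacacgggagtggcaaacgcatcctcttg
Pseudogenes of CHORDC1 took 543 counts in all, 2.79% of those on the gene itself.

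**Figure D2:**
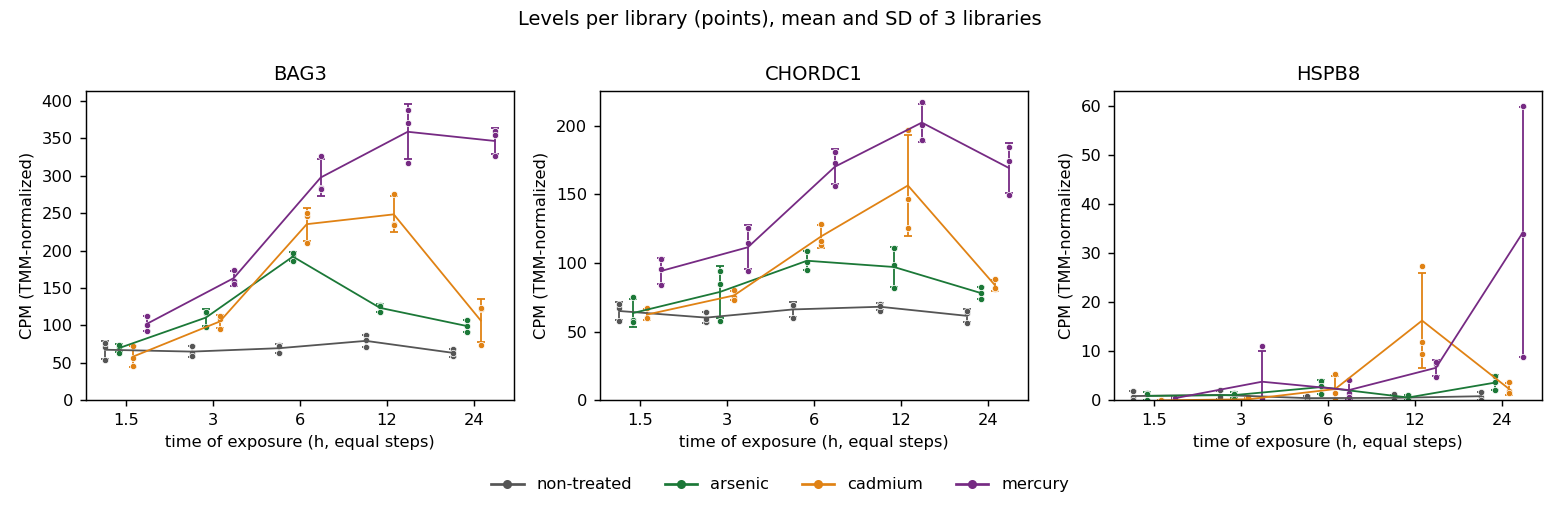
Levels of BAG3, CHORDC1, and HSPB8 in CPM against hours, for non-treated cells and the 3 metals. Points are single libraries, lines join group means, and bars are the SD of 3 libraries. BAG3 and CHORDC1 stay near 70.6 and 64.7 CPM in non-treated cells, and with Hg their means lie above those of the other groups at every time, with means of 346 and 169 CPM at 24 h.

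HSPB8, the small heat-shock partner of BAG3, was at most 2.11 CPM without metal and stood high in 3 groups. Over the 60 libraries it had a mean of 12.75 counts and at most 3 counts in 29 of them, and it passed the filter only through the groups where it was high. At 12 h the counts were 1, 4, and 0 in non-treated cells, 21, 37, and 78 with Cd, 18, 24, and 15 with Hg, and 2, 4, and 0 with As. At 24 h they were 3, 0, and 6 in non-treated cells and 191, 110, and 27 with Hg, and 15, 7, and 13 with As. The LFC was 5.0 ± 0.94 with Cd at 12 h (adjusted p = 9.76e-05), 3.70 ± 1.01 with Hg at 12 h (adjusted p = 0.00616), and 5.28 ± 0.84 with Hg at 24 h (adjusted p = 8.40e-07), and the direction was the same in 3 of 3 libraries each time. These sizes rest on 5 and 9 non-treated counts in all, are no bounds, and are given as a description. With a filter of at least 20 counts on average HSPB8 was not tested, and the 3 calls were not made. Leaving out 1 library moved the Cd value from 4.40 (without Cd replicate 3) to 6.57 (without non-treated replicate 2), the Hg value at 12 h from 3.10 to 5.26 (without non-treated replicate 3 or 2), and that at 24 h from 4.61 (without Hg replicate 1) to 6.24 (without non-treated replicate 3). With Hg at 3 h, 1 library held 43 counts and the others 0 and 1, and this was not called (adjusted p = 0.577).

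The HSPB8 gene lies at chr12:119171555-119224855 (GRCh38, plus strand). The window of its RefSeq start (chr12:119178681-119178980, plus strand, GRCh38.p14) is shown to be set beside that of its partner BAG3. It held 2 matches to a pair of units, from 88 to 81 bases before and from 5 to 12 bases after the start, shown in capitals, and none to 3 units in a row.
HSPB8: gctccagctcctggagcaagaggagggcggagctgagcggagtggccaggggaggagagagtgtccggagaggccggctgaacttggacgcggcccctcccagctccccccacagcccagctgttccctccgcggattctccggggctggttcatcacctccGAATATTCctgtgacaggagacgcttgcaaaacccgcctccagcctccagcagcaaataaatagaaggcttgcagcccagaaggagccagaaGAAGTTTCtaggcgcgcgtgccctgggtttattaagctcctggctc

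HSPB1 and CRYAB had 9 calls each, 3 for each metal, and an LFC of at most 0.79 and 0.85. The HSPB1 libraries at 12 h stood at 1175, 1235, and 1226 CPM without metal, at 1699, 1693, and 1681 CPM with As, at 1749, 2258, and 2297 CPM with Cd, and at 1695, 2005, and 2195 CPM with Hg. Every metal-treated library lay above every non-treated one. The LFC of HSPB1 was 0.48 ± 0.09 with As (adjusted p = 0.000331), 0.79 ± 0.10 with Cd (1.56e-09), and 0.70 ± 0.09 with Hg (3.48e-08). At 24 h the non-treated libraries stood at 1572, 1689, and 1607 CPM and the As libraries at 1537, 1756, and 1552 CPM, which overlapped (LFC -0.01 ± 0.09, adjusted p = 0.976). The Hg libraries at 24 h stood at 2616, 2878, and 2284 CPM (LFC 0.68 ± 0.09, adjusted p = 3.71e-08). The remaining calls of HSPB1, all between 0.29 and 0.42, were each lost without at least 1 library, namely As at 3 h (5 libraries), As at 6 h (3), Cd at 6 h (1), Cd at 24 h (4), and Hg at 6 h (5).

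The As effect on HSPB1 was smaller at 24 h than at 12 h by 0.49 ± 0.13 (adjusted p = 0.0406), but this was lost when 1 of 9 libraries was left out, with values from -0.55 to -0.45. Between these times the non-treated mean of HSPB1 rose from 1212 to 1623 CPM, while the As mean went from 1691 to 1615 CPM. The smaller effect thus lay mainly in the non-treated level. The HSPB1 promoter (chr7:76302423-76302722, plus strand, GRCh38.p14; gene at chr7:76302673-76304295) held 1 match to a pair of units, from 182 to 175 bases before the start. Of the 351 stretches of 50 bases in the last 400 bases of its transcript, 98 (27.9%) also occur in the pseudogenes HSPB1P1 or HSPB1P2, which took 15 counts in all, and for the other 9 members no such stretch was shared with another gene.

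CRYAB rose in the non-treated cells themselves, so its metal effect was read against a moving level. Its non-treated libraries stood at 232, 261, and 240 CPM at 1.5 h and at 484, 484, and 467 CPM at 24 h, a rise of 0.97 ± 0.08 (adjusted p = 6.64e-14), with 0.37 ± 0.08 at 6 h and 0.64 ± 0.08 at 12 h, the first of them lost when 1 of 4 libraries was left out (0.32 to 0.37). Among members, CRYAB was the only one called higher at 6 h against 1.5 h without metal (0.211% of all genes), CRYAB and FKBP4 at 12 h (2.34%), and CRYAB and HSPB1 at 24 h (1.84%). FKBP4 rose by 0.55 ± 0.15 and HSPB1 by 0.36 ± 0.09, and these calls were lost when 1 of 4 and 1 of 3 libraries were left out, respectively, with values from 0.46 to 0.54 and from 0.32 to 0.34. With metal, the CRYAB libraries at 24 h stood at 646, 618, and 716 CPM with As, at 774, 780, and 868 CPM with Cd, and at 766, 886, and 839 CPM with Hg, all above the non-treated libraries of that time. The LFC at 24 h was 0.46 ± 0.08 with As (adjusted p = 1.06e-05), 0.75 ± 0.08 with Cd (5.92e-11), and 0.79 ± 0.08 with Hg (1.26e-12). At 12 h it was 0.71, 0.85, and 0.73, and at 6 h 0.38, 0.32, and 0.49 in the same order, with the As call at 6 h lost without replicate 1 of the non-treated libraries (0.35) and the Cd call without 1 of 4 libraries (0.28 to 0.32). The Cd effect on CRYAB grew from 6 to 12 h by 0.54 ± 0.12 (adjusted p = 0.0145), lost when 1 of 4 libraries was left out (0.45 to 0.51). The gene lies at chr11:111908564-111923722 (GRCh38, minus strand).

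**Figure D3:**
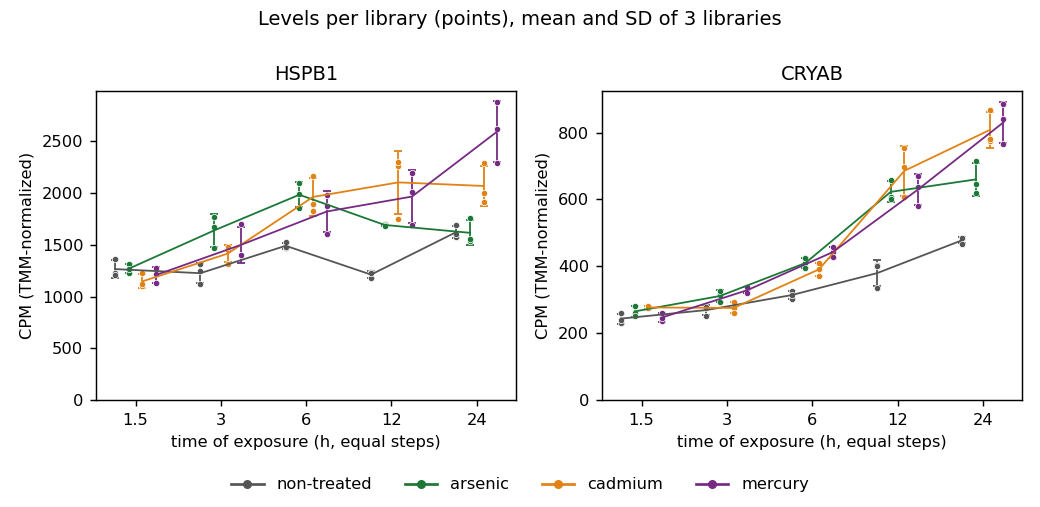
Levels of HSPB1 and CRYAB in CPM against hours, for non-treated cells and the 3 metals. Points are single libraries, lines join group means, and bars are the SD of 3 libraries. CRYAB rises in non-treated cells from a mean of 244 CPM to 479 CPM, and the HSPB1 line of As meets the non-treated line at 24 h while that of Hg reaches a mean of 2593 CPM. From 12 to 24 h the non-treated mean of HSPB1 rises from 1212 to 1623 CPM, and the As mean goes from 1691 to 1615 CPM.

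HSP90AA1, the stress-inducible cytosolic HSP90, was called with all 3 metals at 6 and 12 h, and all 9 of its calls held whichever library was left out. At 12 h its libraries stood at 14044, 12946, and 14358 CPM without metal, at 21404, 20737, and 20325 CPM with As, at 24741, 25028, and 25630 CPM with Cd, and at 28585, 27846, and 27191 CPM with Hg. None of these 4 groups overlapped with another. The LFC was 0.60 ± 0.07 with As (adjusted p = 1.90e-10), 0.87 ± 0.07 with Cd (4.07e-17), and 1.02 ± 0.07 with Hg (1.59e-20). At 24 h the libraries stood at 12094, 12609, and 11573 CPM without metal, at 12380, 13057, and 13966 CPM with As, at 17043, 17728, and 19223 CPM with Cd, and at 23814, 24439, and 24090 CPM with Hg. As then overlapped with non-treated cells (LFC 0.12 ± 0.07, adjusted p = 0.238), Cd remained at 0.57 ± 0.07 (7.77e-10), and Hg at 1.0 ± 0.07 (2.85e-20). The earliest call was with Hg at 3 h (LFC 0.38 ± 0.07).

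HSP90AB1, the constitutive form, was called in 7 comparisons, with an LFC of at most 0.78. At 24 h it stood at 3832, 4260, and 3502 CPM without metal, at 3884, 3762, and 4296 CPM with As, at 4295, 4179, and 5048 CPM with Cd, and at 6472, 6712, and 6745 CPM with Hg. The LFC with Hg was 0.78 ± 0.08 (adjusted p = 9.10e-13), while As (0.04 ± 0.08, adjusted p = 0.778) and Cd (0.22 ± 0.08, adjusted p = 0.139) overlapped with non-treated cells and were not called. At 12 h all 3 metals were called, with an LFC of 0.51 ± 0.08 (As), 0.55 ± 0.08 (Cd), and 0.78 ± 0.08 (Hg). The calls with Cd at 6 h (0.30 ± 0.08) and with Hg at 3 h (0.29 ± 0.08) were lost when 1 of 5 and 1 of 6 libraries were left out, with values from 0.25 to 0.32 and from 0.24 to 0.31, and Hg at 6 h stood at 0.45 ± 0.08.

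The effects on the HSP90 genes changed with time. The As effect was smaller at 24 h than at 12 h for HSP90AA1 (-0.48 ± 0.09, adjusted p = 0.00239) and HSP90AB1 (-0.47 ± 0.11, adjusted p = 0.0136), which with HSPB1 made 3 members called lower, beside 0.899% of all genes. The HSP90AB1 difference was lost when 1 of 3 libraries was left out (-0.43 to -0.39). The Cd effect on HSP90AA1 grew from 6 to 12 h by 0.43 ± 0.09 (adjusted p = 0.0149, lost without 1 of 4 libraries, 0.38 to 0.42), which with CRYAB made 2 members, beside 0.211% of all genes. With Hg the same step was 0.43 ± 0.09 (adjusted p = 0.00518), the only member called, beside 0.77% of all genes.

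**Figure D4:**
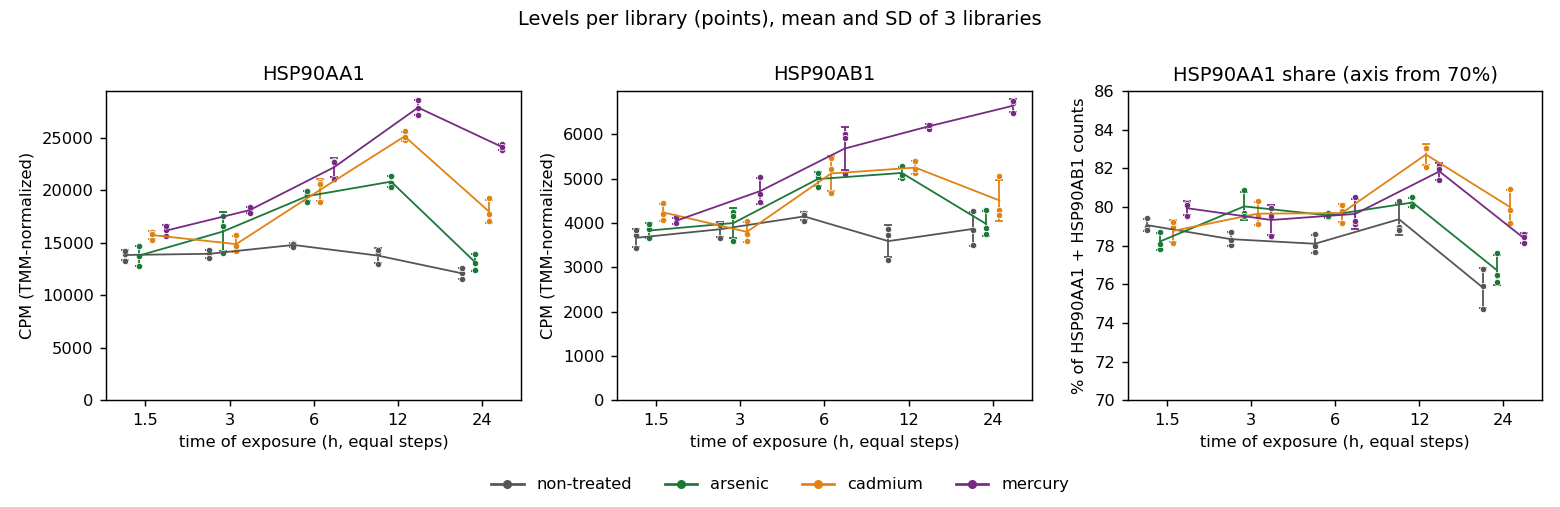
Levels of HSP90AA1 and HSP90AB1 in CPM, and the share of HSP90AA1 in the counts of both genes in percent, against hours for non-treated cells and the 3 metals. Points are single libraries, lines join group means, bars are the SD of 3 libraries, and the axis of the share does not start at 0. With Hg, HSP90AA1 reaches a mean of 27874 CPM at 12 h and has a mean of 24114 CPM at 24 h, whereas the As libraries at 24 h overlap with the non-treated ones, and the share is highest with Cd at 12 h (82.7%).

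HSP90AA1 took most of the counts of the HSP90 pair, and its share in the Cd and Hg libraries lay above the non-treated ones at 12 and 24 h. At 12 h the share was 79.4% ± 0.819 (SD, n = 3) without metal, 80.2% ± 0.239 with As, 82.7% ± 0.563 with Cd, and 81.8% ± 0.422 with Hg. At 24 h it was 75.8% ± 1.02 without metal, 76.7% ± 0.791 with As, 80.0% ± 0.869 with Cd, and 78.4% ± 0.256 with Hg. The difference from non-treated cells was 3.35 percentage points with Cd and 2.48 with Hg at 12 h, and 4.18 and 2.58 at 24 h, with no overlap of libraries, each with p = 0.1 in an exact permutation test (two-sided), the smallest p that 3 against 3 libraries allow. With As it was 0.867 (p = 0.3, same exact permutation test) and 0.924 percentage points (p = 0.4), and the libraries overlapped. Earlier, the As libraries lay above the non-treated ones without overlap, by 1.69 percentage points at 3 h (79.6% to 80.9% against 78.0% to 78.7%) and 1.47 at 6 h (79.5% to 79.7% against 77.7% to 78.6%), each with p = 0.1 by the exact permutation test. The difference with Cd was 1.32 at 3 h and 1.59 at 6 h (exact permutation p = 0.1 for both), and with Hg 0.992 at 3 h, where libraries overlapped (p = 0.2, exact permutation test), and 1.54 at 6 h (p = 0.1, exact permutation test). At 1.5 h it was -0.850 with As, with all 3 libraries below the non-treated ones, -0.298 with Cd, and 0.873 with Hg (exact permutation p = 0.1, 0.6, and 0.1). Counts at 3′ ends are not a measured ratio of the transcripts, and the pseudogenes of HSP90AA1 and HSP90AB1 took 0.0352% and 0.0811% of the counts of their parents.

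The gene HSP90AA1 lies at chr14:102080742-102139699 (GRCh38, minus strand) and HSP90AB1 at chr6:44246166-44253888 (plus strand). RefSeq gives HSP90AA1 2 starts and HSP90AB1 3 starts, and matches were found at 1 start of each, shown here with matched letters in capitals. The HSP90AA1 window (chr14:102086995-102087294, minus strand, GRCh38.p14) held 3 matches to a pair of units, with 1 match to 3 units from 88 to 76 bases and a further pair from 68 to 61 bases before the start. The HSP90AB1 window (chr6:44247693-44247992, plus strand, GRCh38.p14) held 4 matches to a pair, forming 2 matches to 3 units from 165 to 153 and from 112 to 100 bases before the start. Which start the cells used was not measured.
HSP90AA1: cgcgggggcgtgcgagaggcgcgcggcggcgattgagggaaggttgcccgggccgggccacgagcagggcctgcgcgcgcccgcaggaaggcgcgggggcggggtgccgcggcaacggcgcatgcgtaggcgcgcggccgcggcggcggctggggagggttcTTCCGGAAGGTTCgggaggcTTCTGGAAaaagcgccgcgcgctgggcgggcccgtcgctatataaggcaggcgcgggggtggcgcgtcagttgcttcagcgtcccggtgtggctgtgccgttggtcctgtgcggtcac
HSP90AB1: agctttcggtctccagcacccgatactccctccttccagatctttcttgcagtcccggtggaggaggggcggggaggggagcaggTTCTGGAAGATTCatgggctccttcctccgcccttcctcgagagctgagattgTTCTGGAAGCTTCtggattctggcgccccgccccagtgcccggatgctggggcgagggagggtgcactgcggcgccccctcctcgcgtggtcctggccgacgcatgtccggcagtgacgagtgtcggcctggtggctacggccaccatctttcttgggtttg

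**Figure D5:**
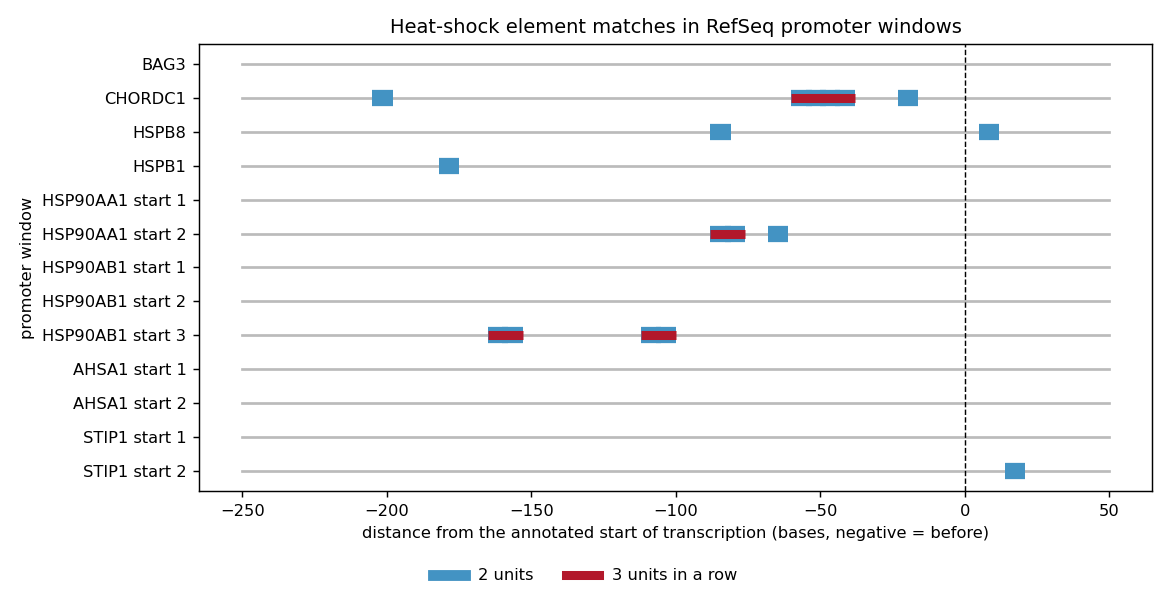
Positions of matches to pairs of GAA units (GAANNTTC or TTCNNGAA) and to 3 units in a row in the 13 promoter windows of 8 members, as distance in bases from the RefSeq start. CHORDC1, 1 start of HSP90AA1, and 1 start of HSP90AB1 hold matches to 3 units, HSPB1, HSPB8, and 1 start of STIP1 hold pairs alone, and BAG3 and AHSA1 hold none.

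The HSP90 co-chaperones AHSA1, STIP1, and FKBP4 had an LFC of at most 0.86, 0.66, and 0.76, and 1 call among the 3 genes was with As. AHSA1, the activator of the HSP90 ATPase, stood at 175, 169, and 153 CPM without metal at 24 h and at 296, 316, and 292 CPM with Hg (LFC 0.86 ± 0.11, adjusted p = 2.87e-09). Its LFC with Hg was 0.51 ± 0.11 at 6 h and 0.68 ± 0.11 at 12 h. The AHSA1 calls at 12 h with As (0.36 ± 0.11) and Cd (0.44 ± 0.11) were lost without 1 of 4 libraries (0.28 to 0.36) and without replicate 2 of the non-treated libraries (0.36). The gene lies at chr14:77457870-77469472 (GRCh38, plus strand).

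STIP1, the adaptor between HSP70 and HSP90, was called with Cd at 12 h (LFC 0.53 ± 0.13, adjusted p = 0.00288) and with Hg at 12 h (0.58 ± 0.13, 0.000489) and 24 h (0.66 ± 0.13, 2.94e-05), and all 3 calls held whichever library was left out. At 24 h it stood at 214, 245, and 194 CPM without metal and at 316, 381, and 333 CPM with Hg, without overlap. With As, STIP1 stood at 273, 264, and 197 CPM at 1.5 h against 192, 183, and 152 CPM (LFC 0.48 ± 0.13, adjusted p = 0.125), and it was the member that DESeq2 called there. The gene lies at chr11:64185272-64204543 (GRCh38, plus strand), and 1 of its 2 starts held 1 match to a pair of units, from 14 to 21 bases after the start.

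FKBP4 was called at 3 times with Cd, at 2 with Hg, and at none with As. With Cd it stood at 165, 163, and 186 CPM at 12 h against 121, 112, and 94.6 CPM (LFC 0.65 ± 0.14, adjusted p = 0.000913), and at 132, 131, and 147 CPM at 24 h against 84.3, 97.2, and 85.8 CPM (0.62 ± 0.14, 0.00528). The call with Cd at 3 h (0.65 ± 0.15, adjusted p = 0.0220) was lost when 1 of 5 libraries was left out (0.58 to 0.69). With Hg it was called at 6 h (0.76 ± 0.14) and 24 h (0.55 ± 0.14) and was not called at 12 h, where the libraries overlapped (0.19 ± 0.14, adjusted p = 0.395). The mean of FKBP4 at 6, 12, and 24 h was 139, 125, and 131 CPM with Hg, against 82.3, 109, and 89.1 CPM without metal. With As, FKBP4 was not called at any time, with LFC values between 0.09 and 0.37. The gene lies at chr12:2794970-2805423 (GRCh38, plus strand).

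The metals were compared directly at each time in 15 contrasts, each adjusted over all genes by edgeR's quasi-likelihood test with Benjamini-Hochberg adjustment. Against Hg, As was lower for 2 members at 1.5 h (0.737% of all genes), 2 at 3 h (1.67%), and 3 at 6 h (3.09%). Later, 5 members at 12 h (4.42%) and 9 at 24 h (6.78%) were lower with As. Cd was lower than Hg for 2 members at 1.5 h (0.543% of all genes) and 4 at 3 h (1.29%), whereas 2 were lower at 6 h (2.14%), 1 at 12 h (1.81%), and 8 at 24 h (10.3%). As was lower than Cd for 6 members at 12 h (3.87%) and 3 at 24 h (5.97%). At 1.5, 3, and 6 h, edgeR called 0 members different between As and Cd, with 3, 4, and 2 at an unadjusted p below 0.05. Of the 12341 genes tested, 0, 15, and 125 were called lower with As at these times, and 0, 2, and 21 higher. HSPB8 was 1 of the members in the counts of As below Hg at 12 and 24 h, Cd below Hg at 24 h, and As below Cd at 12 h, which were 4, 8, 7, and 5 with the stricter filter. The single member higher in As than in Hg was STIP1 at 1.5 h (0.56 ± 0.13, adjusted p = 0.00759, beside 0.818% of all genes called higher), lost when 1 of 3 libraries was left out (0.48 to 0.51).

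BAG3 carried the largest well-counted differences between metals. At 24 h it was lower with As than with Hg by an LFC of -1.80 ± 0.13 (adjusted p = 1.21e-18) and lower with Cd than with Hg by -1.69 ± 0.12 (1.33e-17). At 12 h BAG3 was the only member lower with Cd than with Hg (-0.53 ± 0.12, adjusted p = 0.00308), and it was lower with As than with Cd (-1.01 ± 0.12, 6.56e-09). CHORDC1 differed at 24 h by -1.12 ± 0.13 between As and Hg and by -1.02 ± 0.13 between Cd and Hg, and HSP90AA1 by -0.88 ± 0.07 and -0.42 ± 0.07. CRYAB at 24 h was lower with As than with Hg (-0.33 ± 0.08, adjusted p = 0.00242) and than with Cd (-0.29 ± 0.08, 0.00975), the second lost when 1 of 2 libraries was left out (-0.25 and -0.23).

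The course from 12 to 24 h was tested for each metal. The Cd effect was smaller at 24 h for BAG3 (-0.89 ± 0.18, adjusted p = 0.00841) and CHORDC1 (-0.76 ± 0.19, adjusted p = 0.0382), 2 members beside 0.3% of all genes. These differences were lost when 1 of 2 (-0.80 and -0.68) or 1 of 10 libraries (-0.80 to -0.56) was left out. With Hg, edgeR called 0 members lower at 24 h than at 12 h, beside 0.324% of all genes, with 0 at an unadjusted p below 0.05 and 0 by DESeq2. Earlier, the Hg effect on BAG3 grew from 3 to 6 h by 0.77 ± 0.19 (adjusted p = 0.0346, the only member, beside 0.227% of all genes, lost without 1 of 7 libraries, 0.68 to 0.79).

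Without metal, the counts of the 10 members together made up 1.96% ± 0.114 (SD, n = 3) of TMM-scaled counts at 12 h and 1.87% ± 0.0979 at 24 h. At 12 h they made up 2.91% ± 0.0733 with As, 3.43% ± 0.0829 with Cd, and 3.79% ± 0.0331 with Hg. At 24 h the shares were 2.01% ± 0.103, 2.62% ± 0.181, and 3.55% ± 0.0700 in the same order, and only the As libraries overlapped with the non-treated ones. HSP90AA1 supplied most of these counts, 3469907 over the 60 libraries.

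Other genes of the same families were tested alike. Of 8 other small heat-shock genes, 4 had enough counts to be tested, and at 24 h edgeR called none of them with any metal, with 0 at an unadjusted p below 0.05 for each metal. Of all genes, 6.54% (As), 1.56% (Cd), and 13.9% (Hg) were called higher there, and 7.75%, 0.616%, and 13.9% lower. With these shares, 0 of 4 does not set the other small heat-shock genes apart. Of 5 other BAG genes, 4 were tested, and with Hg at 24 h BAG1, an HSP70 exchange factor, was higher (0.75 ± 0.18, adjusted p = 0.000709) and BAG5 lower (-0.33 ± 0.12, 0.0247), against 13.9% of all genes called higher and 13.9% called lower. The HSP90 of the endoplasmic reticulum, HSP90B1, rose with Cd (0.38 ± 0.09) and Hg (0.26 ± 0.09) at 24 h, while the mitochondrial TRAP1 fell with As (-0.34 ± 0.11) and Hg (-0.29 ± 0.11). Beside these, 1.56% of all genes were called higher with Cd and 13.9% with Hg, and 7.75% were called lower with As and 13.9% with Hg. Of the heat-shock factors and their regulator (4 genes tested), HSF2 rose with Hg at 24 h (0.52 ± 0.19, adjusted p = 0.0283). It was the only 1 of the 4 called there, beside 13.9% of all genes called higher and 13.9% called lower. In that comparison 3 of the 4 had an unadjusted p below 0.05, 2 had an LFC above 0, and their median LFC was -0.02. With As and Cd at 24 h, 0 of the 4 were called, with 0 at an unadjusted p below 0.05.

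Among 31 other HSP90 co-chaperones and adaptors, 30 were tested. At 24 h, 3 were higher and 1 lower with As (6.54% and 7.75% of all genes), 1 higher and 0 lower with Cd (1.56% and 0.616%), and 8 higher and 3 lower with Hg (13.9% each way), and the median LFC of the list was -0.00055, 0.13, and 0.16. The 3 with the largest changes were CACYBP, an adaptor of ubiquitin ligases, higher with Hg (0.92 ± 0.09, adjusted p = 2.64e-13), FNIP1, a co-chaperone that slows the HSP90 ATPase, higher with Cd (0.88 ± 0.22, 0.0117) and As (0.65 ± 0.22, 0.0369), and STUB1, the ubiquitin ligase of HSP70 and HSP90, lower with Hg (-0.79 ± 0.15, 4.54e-05). PTGES3, the p23 co-chaperone, was higher with Hg (0.65 ± 0.08), and CDC37, the kinase adaptor, was at 0.20 ± 0.10 (adjusted p = 0.108).

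Genes with the pattern nearest to the members over the 20 group means were searched outside the 10 members, among the 7244 genes averaging 50 or more counts, by Pearson's r of log2 CPM, given as a description since the points share libraries. Nearest to BAG3 outside the members were HSPH1 (0.966), DNAJB4 (0.958), and HSPA1B (0.955), all of the HSP70 system. Nearest to HSPB1 were DEDD2 (0.920), HSPA1B (0.881), and HSPA1A (0.878). HSP90AA1 lay nearest to CACYBP (0.962), HSPH1 (0.958), and the chaperonin subunit TCP1 (0.943), and HSP90AB1 to DNAJB6 (0.943), HSPH1 (0.933), and UBQLN1 (0.930). Between members, r was 0.976 for BAG3 and CHORDC1, higher than for any gene named here, 0.938 for HSP90AA1 and HSP90AB1, and 0.570 for BAG3 and CRYAB.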

How the data were processed

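RNA of 1321N1 cells was measured in 60 libraries of 3′ ends (QuantSeq 3′ mRNA-Seq FWD, single-end reads). Alignment to GRCh38 by the authors used STAR (2.7.9a in the submitters' processing notes), and the authors counted reads strand-specifically on exons of the GENCODE basic annotation in Union mode, and deposited whole-number counts per gene without normalization. Union mode drops reads that overlap several genes, and 3′ counts do not grow with transcript length. The 92 rows that name no gene held 0 counts and were left out, and 0 columns of samples were unused.

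A single edgeR 4.0.16 model (R 4.3.3) held all 60 libraries, with 1 coefficient for each of the 20 groups and TMM normalization (factors 0.934 to 1.03). Genes were kept by filterByExpr (minimum count 10, minimum total 15), and 12341 remained. P-values of the quasi-likelihood test were adjusted (Benjamini-Hochberg) in each comparison over all genes tested, and the threshold was an adjusted p of 0.05. The SE of an LFC was taken as its size over the square root of F. Comparisons were metal against non-treated (15), metal against metal (15), successive times of a metal's effect (12), and non-treated times against 1.5 h (4). The test was first run on simulated counts, drawn independently for each library with the spread fitted to these data. That run cannot show how the test behaves if the replicates are technical.

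All 10 members are named, with the 3 genes of each related list with the largest LFC at 24 h and the 3 nearest patterns, outside the members, of 4 members. The members and lists were chosen with earlier results of these data known. Replicates differed by more than sampling noise (lowest chi-square per degree of freedom 1.997). Alternatives were DESeq2 1.42.0, RLE size factors, no filter, a stricter filter (mean count of at least 20), fits of the compared libraries alone, a replicate block, and leaving out each library. Intervals and SEs cover the spread of libraries only. Promoters came from RefSeq (GRCh38.p14). Reads were not realigned.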

Additional observations from a re-analysis of the deposited data

Results flagged for a closer look

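The effect of a metal on a member differed between successive times in 12 tests (edgeR's quasi-likelihood test of the difference of 2 LFC values, adjusted over all genes). With As, the effect on BAG3 was smaller at 12 h than at 6 h (-0.82 ± 0.19, adjusted p = 0.0207), and that on HSPB1 (-0.49 ± 0.13, 0.0406), HSP90AA1 (-0.48 ± 0.09, 0.00239), and HSP90AB1 (-0.47 ± 0.11, 0.0136) was smaller at 24 h than at 12 h. For HSPB1 the difference lay mainly in the non-treated mean, which rose from 1212 to 1623 CPM, while the As mean went from 1691 to 1615 CPM. With Cd, the effect on BAG3 was larger at 3 h than at 1.5 h (0.92 ± 0.19, 0.0206) and at 6 h than at 3 h (1.06 ± 0.19, 0.000819), and smaller at 24 h than at 12 h (-0.89 ± 0.18, 0.00841). With Cd, too, CRYAB (0.54 ± 0.12, 0.0145) and HSP90AA1 (0.43 ± 0.09, 0.0149) had a larger effect at 12 h than at 6 h, and CHORDC1 a smaller one at 24 h than at 12 h (-0.76 ± 0.19, 0.0382). With Hg, BAG3 had a larger effect at 6 h than at 3 h (0.77 ± 0.19, 0.0346) and HSP90AA1 at 12 h than at 6 h (0.43 ± 0.09, 0.00518). Of these, BAG3 with Cd between 3 and 6 h and HSP90AA1 with As between 12 and 24 h and with Hg between 6 and 12 h kept their call whichever library was left out.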

How the results depend on the processing

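No member's LFC reversed a called direction under any alternative. The replicate block left all 390 member tests on the same side of the threshold. Metal and non-treated libraries of the same time and replicate number showed no sign of pairing (median correlation of deviations -0.00799 over 45 pairs, highest 0.0837, 0 over 0.1). Pairs between metals or between times were not examined. RLE size factors changed 2 of 390 calls, and DESeq2 left 349 as they were, added 18, removed 0, and gave no adjusted p for the rest, all of HSPB8. The stricter filter left HSPB8 out, which ended its 3 calls against non-treated cells. With only the libraries compared, the calls of HSPB1 (As at 3 h, Cd at 24 h), AHSA1 (As at 12 h), CRYAB (Cd at 6 h, As against Cd at 24 h), BAG3 (Cd at 24 h), and CHORDC1 (As against Hg at 3 h) were lost, and without a filter those of CRYAB with Cd at 6 h and in non-treated cells at 6 h.

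Counts of members called that moved by over 1.5 times follow. DESeq2 gave 1 with As at 1.5 h (0 in the edgeR fit), 2 for Cd lower than Hg at 12 h (1), 2 for Cd growing from 3 to 6 h (1), and 2 for Hg growing from 6 to 12 h (1). No filter gave 1 with As at 1.5 h (0) and 2 for Cd growing from 3 to 6 h (1). A fit of only the libraries compared gave 1 with As at 3 h (2), 2 with Cd at 1.5 h (0), 3 with Cd at 24 h (5), 7 with Hg at 3 h (4), 3 for Cd lower than Hg at 12 h (1), 1 for As lower than Hg at 3 h (2), and 3 for non-treated cells at 6 h against 1.5 h (1).

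Leaving out 1 library gave, against non-treated, 0 to 1 with As at 1.5 h, 1 to 2 at 3 h, and 3 to 5 at 6 h, 0 to 2 with Cd at 3 h, and 0 to 2 with Hg at 1.5 h. It gave 0 to 3, 0 to 2, and 3 to 5 for As lower than Hg at 1.5, 3, and 12 h, 1 to 2, 1 to 5, 1 to 2, and 1 to 2 for Cd lower than Hg at 1.5, 3, 6, and 12 h, and 1 to 3 for As lower than Cd at 24 h. Between times it gave 0 to 1 (As, 6 to 12 h), 1 to 3 (As, 12 to 24 h), 0 to 1, 1 to 2, 0 to 3, and 0 to 3 (Cd, the 4 steps in order), and 0 to 1 and 1 to 2 (Hg, 3 to 6 and 6 to 12 h), and for non-treated cells 0 to 1, 1 to 2, and 1 to 2 at 6, 12, and 24 h. The cause of these moves was not tested.

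The summed share of the members rose by 1.31 instead of 1.47 percentage points with Cd at 12 h, and by 1.74 instead of 1.83 and 1.60 instead of 1.68 with Hg at 12 and 24 h, when raw library totals replaced TMM. Depth limits HSPB8, whose non-treated levels lie near the 3 counts used as a floor.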
